A study of Mus musculus with 11 samples.

Results

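The cytosolic ribosomal protein genes were followed on 11 Affymetrix arrays of sorted mouse hematopoietic stem cells (HSCs), which renew themselves in the bone marrow and give rise to all blood cells. Members were the genes whose only annotated symbol starts with Rpl or Rps and a digit, or is Rpsa, Rplp0, Rplp1 or Rplp2, without pseudogene symbols and S6 kinases. This gave 69 of the 22180 genes tested. Of the 69 members, 58 encode canonical ribosomal proteins, 23 of the small 40S and 35 of the large 60S subunit. The other 11 are 9 paralogs, namely Rpl3l, Rpl6l, Rpl7l1, Rpl10l, Rpl22l1, Rpl32l, Rpl39l, Rps4l and Rps27l, the retrogene Rps23rg1 and Rps19bp1, which encodes a binding partner of Rps19. A further 19 of 77 canonical symbols, Rps2, Rpl13a and Rps27a among them, lacked a probe set with a single symbol and are not analysed here.

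HSCs were sorted by flow cytometry from mice injected with PBS (the control, 3 arrays), with all-trans retinoic acid (ATRA, a vitamin A derivative, 3 arrays), with polyI:C (pIC, a synthetic double-stranded RNA that triggers an antiviral interferon response, 2 arrays) or with ATRA and afterwards polyI:C (ATRA+pIC, 3 arrays). The sources used here do not give strain, age, doses, injection times or the number of mice behind an array. The p-values therefore measure the spread between these samples, which may be technical. The number of arrays limits the precision of every value. The series title concerns the exit of HSCs from dormancy and its control by retinoic acid, and the comparisons below ask how this gene group stood after each injection.

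A ribosome holds ribosomal RNA and one copy of most ribosomal proteins, which are made in near-equal amounts and assembled in the nucleolus before the subunits are exported. Most mammalian ribosomal protein mRNAs begin with a run of pyrimidines, the 5′ terminal oligopyrimidine (TOP) tract, through which mTORC1 and the RNA-binding protein Larp1 set their translation. Quiescent HSCs make little protein, and human mutations in single ribosomal protein genes cause Diamond-Blackfan anemia.

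The start-site sequences below show this TOP tract in members that lay a little below PBS after polyI:C, beside the starts of other members described below, Rpl32l with the largest difference, which was not called, among them. They are from RefSeq (GRCm38.p6), 5′ to 3′ on the gene's strand, with 10 bases before the annotated start and 20 from it on. Capitals mark the unbroken run of C and T that begins at the annotated start base.
Rps6 (chr4:86857348-86857377, minus strand): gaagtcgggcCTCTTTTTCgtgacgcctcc
Rpl15 (chr14:18270967-18270996, minus strand): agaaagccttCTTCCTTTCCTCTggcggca
Rpl38 (chr11:114668570-114668599, plus strand): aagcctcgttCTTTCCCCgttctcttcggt
Rpl32l (chr10:20208429-20208458, plus strand): aaatgaccagCTTCTTCCTTggtgctgcct
Rps28 (chr17:33824543-33824572, minus strand): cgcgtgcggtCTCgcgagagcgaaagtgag
Rps3a1 (chr3:86142649-86142678, minus strand): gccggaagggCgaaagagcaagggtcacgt
Rpl34, start 1 (chr3:130730318-130730347, minus strand): cttttcctctTCCggggacggtgctcagag
Rpl34, start 2 (chr3:130730379-130730408, minus strand): tccctgacgtacttcctgtccggcgccgtc
Rps27l, start 1 (chr9:66946076-66946105, plus strand): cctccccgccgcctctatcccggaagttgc
Rps27l, start 2 (chr9:66946403-66946432, plus strand): gggcttcagggtcactaacgggcctcgcag
Rps19bp1 (chr15:80264287-80264316, minus strand): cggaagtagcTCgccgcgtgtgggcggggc

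A promoter entry (250 bases before and 50 from the start) was found for 54 of the 69 members, with 63 entries in all. A C at the annotated start followed by at least 4 bases that are each C or T, read on the gene's strand, stood in 11 of the 63 entries (17.5%), compared with 2.51% of 32851 entries of all genes. Beginning anywhere within 10 bases of the start, the tract stood in 54.0% of member entries and 30.7% of all entries. The other 3 motifs were searched on both strands of the whole entry, and an entry counted once. CCGGAAG, a core bound by ETS factors, was present in 36.5% of member entries and 8.86% of all entries. TCGCGAGA, found in many housekeeping promoters and held by the Rps28 window above, was present in 15.9% against 0.995%. TATAAA, the TATA box, was present in 9.52% against 13.6%. Annotated starts were taken as given and need not be those used in HSCs, and a match does not show that a factor bound.

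Levels are deposited log2 intensities. A change is the log2 difference of 2 group means, given with its standard error (SE, after ±), from a single limma fit to the 22180 genes on 11 arrays. Adjusted p stands for the Benjamini-Hochberg adjusted p of that fit, and a member was called where it was under 0.05. Over the 11 arrays 32 members averaged 10 or more, where the 99th percentile of all genes was 11.5, and 37 averaged less. They are called the bright and the dim members. Array medians over all probe sets ran from 6.19 to 6.28. ATRA+pIC replicate 2 stood apart from its group: its score on principal component 1 (56% of the variance) was -4.53, compared with 35.8 and 23.3 for the other ATRA+pIC arrays. Counts of members called or not overlapping in comparisons with this group, and the tests of paralogs, are therefore given with and without it.

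After polyI:C most ribosomal protein mRNAs lay slightly below PBS, nearly all without passing the test, and a few members rose. In pIC versus PBS, 4 of 69 members rose (Rpl34, Rps19bp1, Rps4l and Rps27l) and 2 fell (Rps28 and Rpl21), by limma. Over all genes 8.94% rose and 5.75% fell, so the 8.7% of members called lay below the 14.7% of all genes called. Among the 58 canonical proteins 1 rose and 2 fell. Without ATRA+pIC replicate 2, which enters through the shared estimate of spread, 4 members rose and 6 fell, when 18.3% of all genes were called. Without pIC replicate 1 or 2, 0 fell and 2 rose, when 4.34% or 2.99% of all genes were called. Without PBS replicate 2, 0 fell and 3 rose, when 8.83% of all genes were. The median change of the 69 members was -0.09, with 46 below 0, compared with a median of 0.0013 over all genes. The median was -0.11 in the 40S and -0.10 in the 60S proteins. In bulk samples such as these, fewer cells of a type and less RNA per cell cannot be told apart.

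The small downward difference was carried by the bright members, a split made after the values were seen. Of the 32, 28 lay below PBS and their median change was -0.14, whereas the 1579 genes of the same signal range had a median of 0.08 and 37.6% of them lay below PBS. The 37 dim members had a median of 0.01, with 18 below PBS. Some of them are canonical proteins whose probe sets averaged below the array medians, such as Rps15 (5.11) and Rpl37 (5.55). Whether a dim value came from little mRNA or from the probe set was not tested. Lying below PBS was not confined to polyI:C: in ATRA versus PBS 30 of the 32 bright members did so, with a median of -0.05. Both pIC arrays lay below all 3 PBS arrays in 31 of 69 members (44.9%), compared with 19.6% of all genes, and above them in 14 members (20.3%), compared with 23.4%. Among the bright members the counts were 23 of 32 lower and 4 of 32 higher, compared with 26.5% and 49.7% of the 1579 genes, again not matched in level. Array by array, the median of the 69 members relative to the PBS mean was -0.02, -0.0018 and 0.02 in PBS, -0.04, -0.05 and -0.04 in ATRA, -0.08 and -0.10 in pIC, and -0.12, -0.06 and -0.10 in ATRA+pIC. All 5 arrays with polyI:C were lower than all 6 without it.

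**Figure D1:**
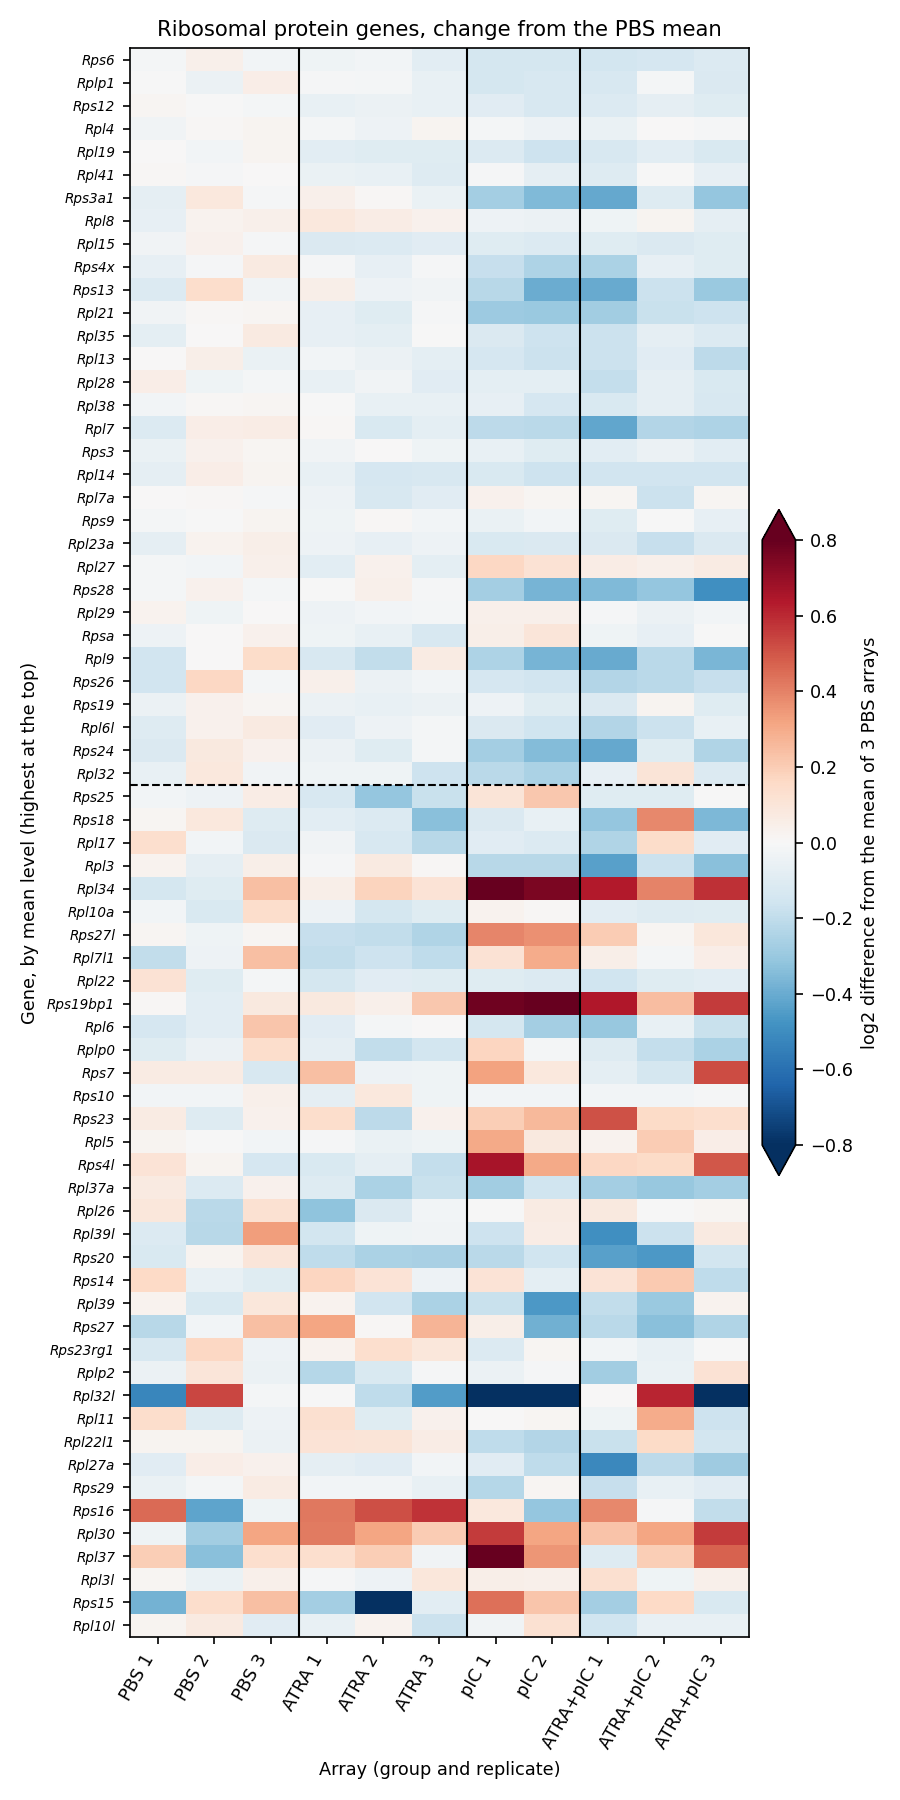
Log2 difference from the mean of the 3 PBS arrays (colour, blue lower and red higher, cut at 0.8) for the 69 members (one line each, by mean level) on the 11 arrays (columns, grouped by injection). Above the dashed line, which separates the 32 bright from the 37 dim members, most cells of the 5 polyI:C columns are pale blue, whereas Rpl34 and Rps19bp1 below it are red in all 5.

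Rps28, a 40S protein needed for small-subunit maturation, fell with polyI:C in both backgrounds. Its levels were 11.83, 11.88 and 11.83 in PBS and 11.84, 11.89 and 11.84 in ATRA, but 11.58 and 11.47 in pIC and 11.49, 11.53 and 11.35 in ATRA+pIC. The groups with and without polyI:C did not overlap. The change was -0.32 ± 0.08 in pIC versus PBS (limma adjusted p = 0.0245) and -0.40 ± 0.07 in ATRA+pIC versus ATRA (limma adjusted p = 0.0119). A second, dimmer Rps28 probe set changed by 0.06 in pIC versus PBS, and the average of both probe sets changed by -0.13 and was not called.

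Rpl21, a 60S protein, stood at 12.70, 12.74 and 12.75 in PBS, 12.67, 12.63 and 12.72 in ATRA, 12.44 and 12.43 in pIC, and 12.45, 12.55 and 12.56 in ATRA+pIC. Every array with polyI:C was again below every array without it. The change was -0.29 ± 0.07 in pIC versus PBS (limma adjusted p = 0.0241) and -0.15 in ATRA+pIC versus ATRA, where it was not called (limma adjusted p = 0.217). Of the 3 Rpl21 probe sets, the other bright one changed by -0.30 and the dim one by 0.08. Without either pIC array, or without PBS replicate 2 or 3, the Rpl21 call was lost, and the Rps28 call was lost without either pIC array or PBS replicate 1 or 2.

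Several bright members had differences of the same size that missed the threshold, and they are named here after their values were seen. In pIC versus PBS the change was -0.31 ± 0.10 for Rps3a1 (limma adjusted p = 0.0592), -0.31 ± 0.10 for Rps13 (0.0681) and -0.31 ± 0.10 for Rps24 (0.0695), all proteins of the 40S subunit. Rps3a1 stood at 12.95, 13.11 and 13.02 in PBS, 13.07, 13.04 and 12.98 in ATRA, 12.76 and 12.68 in pIC, and 12.62, 12.92 and 12.72 in ATRA+pIC. The highest of the 5 polyI:C values, in ATRA+pIC replicate 2, was just below the lowest of the other 6. Rps6, the S6 kinase substrate and the brightest member, stood at 13.57, 13.63 and 13.57 in PBS, 13.55, 13.57 and 13.50 in ATRA, 13.45 and 13.44 in pIC, and 13.44, 13.46 and 13.48 in ATRA+pIC. Its groups did not overlap either, yet the change of -0.14 ± 0.07 was not called (limma adjusted p = 0.23).

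Rpl34, a 60S protein, had the largest rise. It stood at 8.815, 8.854 and 9.191 in PBS, 8.998, 9.132 and 9.064 in ATRA, 9.812 and 9.709 in pIC, and 9.590, 9.353 and 9.539 in ATRA+pIC. All 5 polyI:C arrays were above the other 6. The change was 0.81 ± 0.12 in pIC versus PBS, a 1.75-fold intensity (limma adjusted p = 0.0033), and 0.43 ± 0.11 in ATRA+pIC versus ATRA (limma adjusted p = 0.0392). Rps19bp1, whose product binds Rps19 and is not part of the ribosome, rose with it. Its levels were 8.58, 8.49 and 8.65 in PBS, 8.65, 8.61 and 8.79 in ATRA, 9.35 and 9.37 in pIC, and 9.21, 8.82 and 9.13 in ATRA+pIC. The rise was 0.79 ± 0.12 in pIC versus PBS (limma adjusted p = 0.00315), and the change of 0.37 in ATRA+pIC versus ATRA was not called (limma adjusted p = 0.0599). Both pIC versus PBS calls were kept in 18 of 18 alternative fits.

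Rps27l, the paralog of Rps27 known as a p53 target, rose in both backgrounds. It stood at 9.17, 9.12 and 9.17 in PBS, 8.97, 8.96 and 8.91 in ATRA, 9.55 and 9.52 in pIC, and 9.36, 9.17 and 9.25 in ATRA+pIC. The pIC arrays were the highest and the ATRA arrays the lowest, while ATRA+pIC replicate 2 lay level with PBS. The rise was 0.38 ± 0.08 in pIC versus PBS (limma adjusted p = 0.0116) and 0.31 ± 0.07 in ATRA+pIC versus ATRA (limma adjusted p = 0.0262). Rps4l, a paralog of Rps4x, stood at 7.40, 7.31 and 7.16 in PBS, 7.17, 7.22 and 7.10 in ATRA, 7.95 and 7.59 in pIC, and 7.46, 7.45 and 7.79 in ATRA+pIC. It rose by 0.48 ± 0.14 in pIC versus PBS (limma adjusted p = 0.0371), with no overlap between arrays with and without polyI:C. The pIC versus PBS calls of both genes were lost without either pIC array, and that of Rps4l also without any 1 of the PBS or ATRA arrays.

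**Figure D2:**
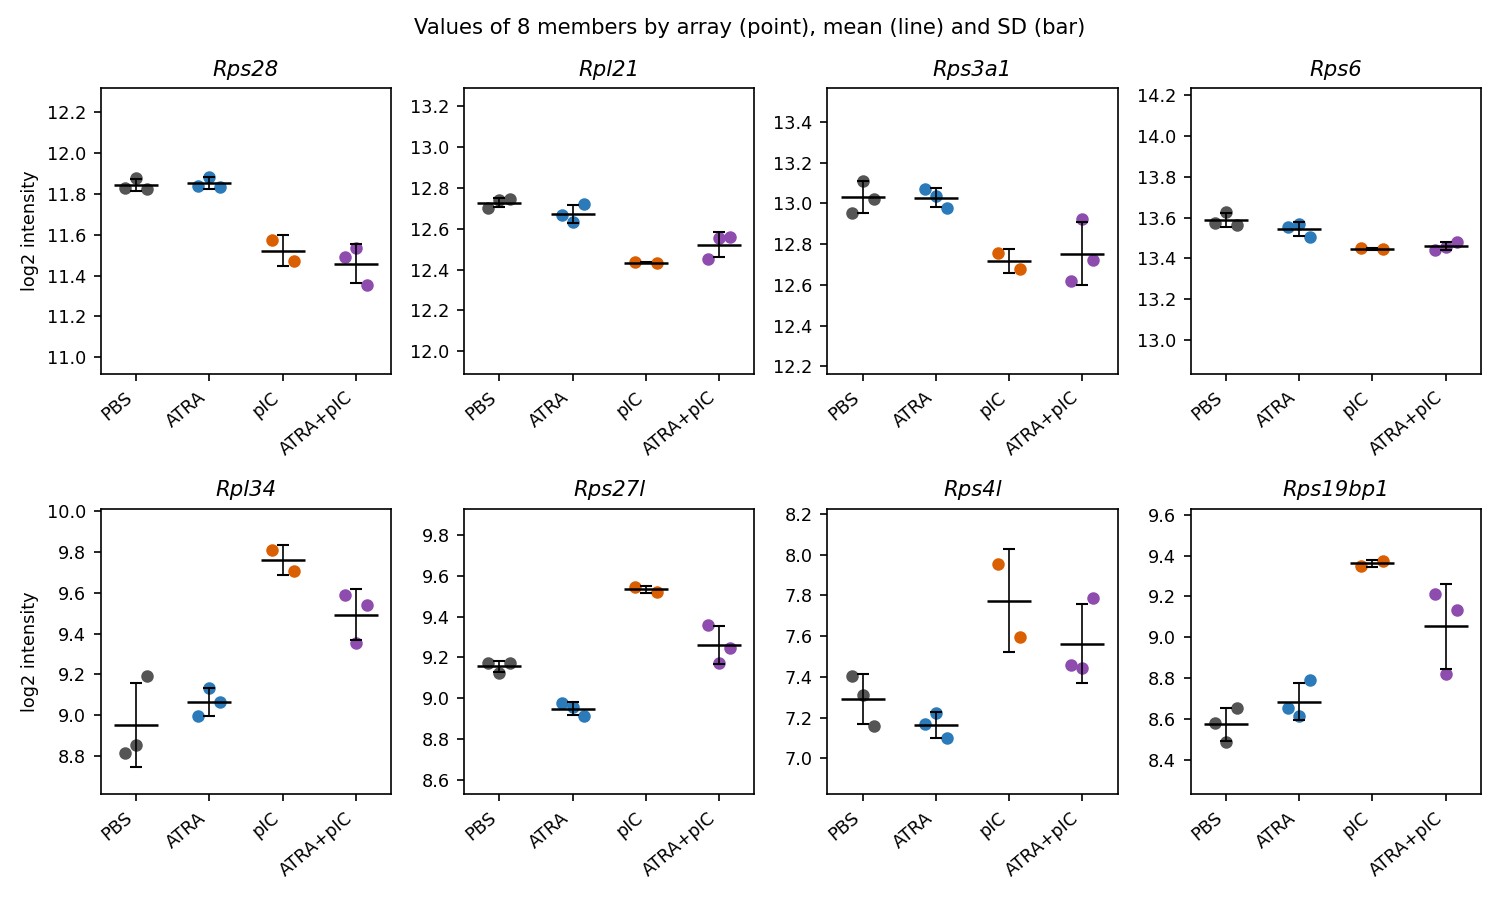
Log2 intensity (vertical axes, each spanning 1.4 units) of 8 members by group (horizontal axes): points are arrays, lines group means and bars the SD (PBS, ATRA and ATRA+pIC n = 3, pIC n = 2). Rps28, Rpl21, Rps3a1 and Rps6 are lower on every polyI:C array and Rpl34, Rps4l and Rps19bp1 higher on every one, while Rps27l overlaps between ATRA+pIC and PBS.

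The largest difference of any member was that of Rpl32l, a paralog of Rpl32, and it was not called. Rpl32l stood at 6.21, 7.26 and 6.71 in PBS, 6.73, 6.52 and 6.28 in ATRA, 4.88 and 5.89 in pIC, and 6.73, 7.34 and 5.84 in ATRA+pIC. Replicates of 1 group lay more than 1 log2 unit apart, and the change of -1.34 ± 0.43 in pIC versus PBS did not pass (limma adjusted p = 0.0612). Its start, shown above, carries the pyrimidine tract.

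Other members of known role differed less. Rpl5 and Rpl11, which with 5S RNA bind Mdm2 when ribosome assembly fails, changed by 0.19 ± 0.09 (limma adjusted p = 0.196) and 0.01 ± 0.13 (0.973) in pIC versus PBS. Rps19, the gene most often mutated in Diamond-Blackfan anemia, changed by -0.07, Rplp0 of the ribosomal stalk by 0.08, Rpl38 by -0.10, Rpl22 by -0.10, Rps27 by -0.17 and the paralogs Rpl22l1 and Rpl7l1 by -0.22 and 0.21, none of them called by limma. Of the 20 listed ribosomal protein genes of Diamond-Blackfan anemia 15 were measured. Of these 0 rose and 1 fell, Rps28, and their median change was -0.10.

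Members with and without a TOP tract at the annotated start were set side by side. All 11 with the tract lay below PBS in pIC versus PBS, with a median of -0.10, and 0 were called. Of the 43 other members with a promoter entry 24 lay below PBS, with a median of -0.04. In these 3 rose and 1 fell, by limma. After ATRA, in ATRA+pIC versus ATRA, 7 of the 11 with the tract lay below ATRA, with a median of -0.05, and 26 of the 43 others, with a median of -0.02. With ATRA alone, in ATRA versus PBS, 10 of the 11 with the tract lay below PBS, with a median of -0.06, and 33 of the 43 others, with a median of -0.05. The 43 include members such as Rpl27a and Rpl7a, whose run of C and T had a T at the annotated start. Of those with the tract, Rpl14, Rpl15, Rpl28, Rpl35, Rpl38 and Rps6 were bright and the rest dim. The 2 groups of genes were not matched in level, and the difference between them was not tested.

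No member was called with ATRA alone. In ATRA versus PBS 0 of 69 members passed by limma, with 5 at an unadjusted p under 0.05, and 0.00451% of all genes were called. The median change was -0.05, with 54 of 69 members below PBS, compared with a median of -0.0017 over all genes. The smallest p-values were those of Rps27l (-0.21 ± 0.07, limma adjusted p = 0.598), Rps25 (-0.20 ± 0.08, 0.64) and Rps20 (-0.24 ± 0.10, 0.694).

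PolyI:C after ATRA called few members, and 3 of the 4 were also called in pIC versus PBS. In ATRA+pIC versus ATRA 2 members rose, Rpl34 and Rps27l, and 2 fell, Rps28 and Rpl3, by limma, while 3.5% of all genes rose and 3.71% fell. Rpl3, a 60S protein at the peptidyl transferase center, stood at 9.57, 9.47 and 9.60 in PBS, 9.54, 9.62 and 9.56 in ATRA, 9.33 and 9.33 in pIC, and 9.12, 9.38 and 9.22 in ATRA+pIC. It fell by 0.34 ± 0.08 (limma adjusted p = 0.0313), and all 5 polyI:C arrays were below the other 6. The other Rpl3 probe sets changed by 0.06 and 0.22 in this comparison, the average of all 3 by -0.0186 (limma adjusted p = 0.955), and the call was kept in 8 of 18 alternative fits. The largest differences downward among canonical proteins, -0.46 for Rps27 and -0.45 for Rps16, were not called. Without ATRA+pIC replicate 2, 4 members rose and 6 fell, when 14.5% of all genes were called. Calls also depended on single arrays elsewhere. Without ATRA replicate 1, 2 or 3, or ATRA+pIC replicate 1, only Rps28 was called, when 2.61% to 3.4% of all genes were. Without ATRA+pIC replicate 3 no member was called, when 2.15% of all genes were. The median change was -0.04 over all members and -0.07 over the bright ones, of which 26 of 32 lay below ATRA (27 without ATRA+pIC replicate 2). The ATRA+pIC arrays lay below all ATRA arrays in 22 of 69 members (31.9%), compared with 12.4% of all genes, and above them in 9 (13%), compared with 11.7%. Without ATRA+pIC replicate 2 the counts were 32 members (46.4%) below, compared with 21.2% of all genes, and 11 (15.9%) above, compared with 20.5%.

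The comparisons pIC versus PBS and ATRA+pIC versus ATRA share no arrays. Across the 69 members 57 (82.6%) had the same sign in both, compared with 68.8% of all genes. Called in both were 3 of the 69 members, Rpl34, Rps27l and Rps28, compared with 1177 of all 22180 genes. The signs matched in 62 members (89.9%, compared with 70.3% of all genes) without ATRA+pIC replicate 2. In that fit 7 members (10.1%) were called in both. Of all genes 18.3% were then called in pIC versus PBS and 14.5% in ATRA+pIC versus ATRA. The share of all genes called in both was not computed, so the count of 7 cannot be read as high or low. The correlation across members was 0.6, against 0.811 across all genes. These are descriptions across genes, which are not independent replicates.

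**Figure D3:**
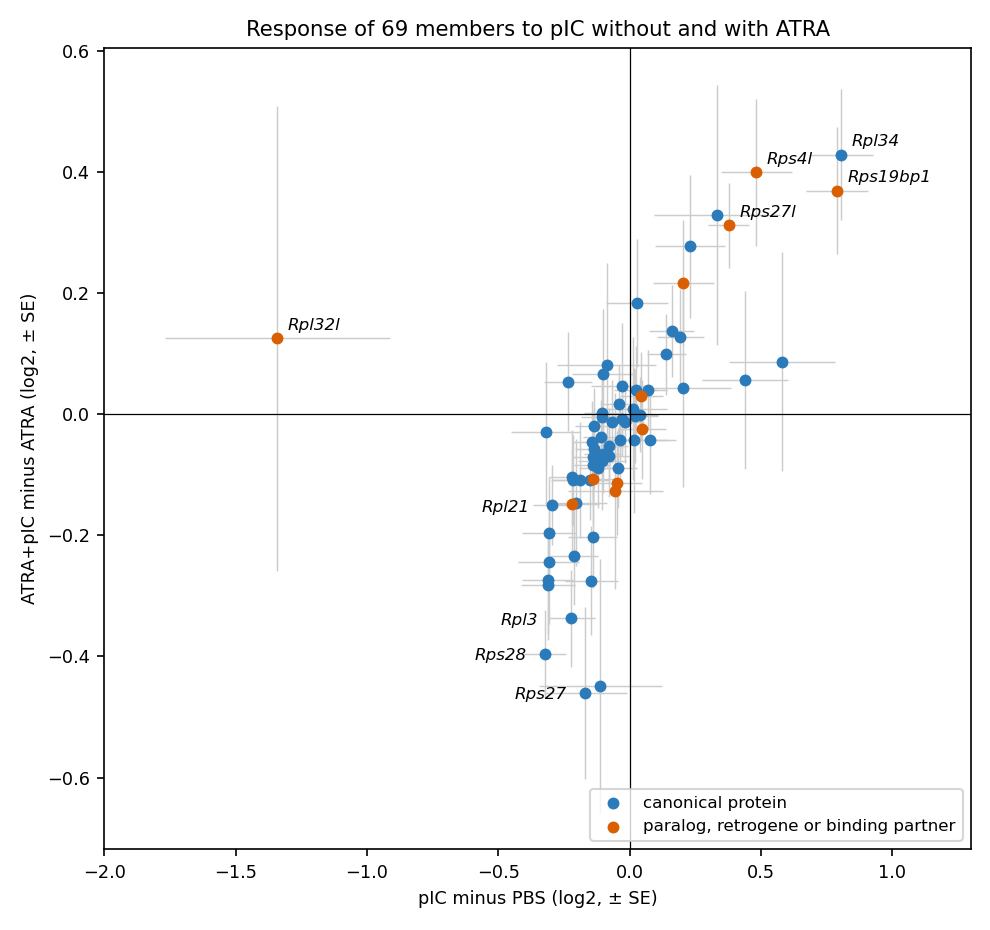
Change in pIC versus PBS (horizontal axis, log2 ± SE) against change in ATRA+pIC versus ATRA (vertical axis, log2 ± SE) for the 69 members; axis scales differ. Called members, Rps27 and Rpl32l are named. Most canonical proteins (blue) sit just below 0 on both axes, Rpl34, Rps19bp1, Rps4l and Rps27l sit at the upper right, and Rpl32l is far to the left on the horizontal axis alone.

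Averaged over both backgrounds, an effect fitted after the values were seen, polyI:C called 13 members by limma. Of these 4 rose (Rpl34, Rps19bp1, Rps27l and Rps4l) and 9 fell (Rpl3, Rpl7, Rpl9, Rpl21, Rpl27a, Rps3a1, Rps13, Rps24 and Rps28), while 12.2% of all genes rose and 9.89% fell. The falls ran from -0.21 for Rpl27a to -0.36 ± 0.05 for Rps28 (limma adjusted p = 0.0012), and Rpl34 rose by 0.62 ± 0.08 (limma adjusted p = 0.0006). The 5 arrays with polyI:C lay below all 6 others in 13 members (18.8%), compared with 4.84% of all genes: Rpl3, Rpl7, Rpl9, Rpl13, Rpl21, Rpl23a, Rpl38, Rps3a1, Rps4x, Rps6, Rps12, Rps13 and Rps28, all canonical. They lay above them in 4 members, Rpl5, Rpl34, Rps4l and Rps19bp1 (5.8%), compared with 5.51% of all genes. Without ATRA+pIC replicate 2, 5 members rose (7.25%, compared with 14% of all genes) and 11 fell (15.9%, compared with 12%) on average, and the arrays with polyI:C lay below all others in 20 members (29%, compared with 9.57% of all genes) and above them in 7 (10.1%, compared with 11.6%).

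No member was called between polyI:C with and without ATRA. In ATRA+pIC versus pIC 0 of 69 members passed by limma, with 6 at an unadjusted p under 0.05, and 0% of all genes were called. The median change was -0.0091. The smallest p-values were those of Rps27l (-0.27 ± 0.08, limma adjusted p = 0.311), Rpl32l (1.25 ± 0.43, 0.372) and Rps25 (-0.23 ± 0.08, 0.407). The interaction, which asks whether the response to polyI:C differed with ATRA, called 0 members and 0% of all genes by limma, with 4 members at an unadjusted p under 0.05. Of these Rps19bp1 (-0.42 ± 0.16) and Rpl32l (1.47 ± 0.58) each had a limma adjusted p of 0.786. In ATRA+pIC versus PBS 2 members rose, Rpl34 (0.54 ± 0.11, limma adjusted p = 0.0277) and Rps19bp1 (0.48 ± 0.10, 0.0376), and 1 fell, Rps28 (-0.39 ± 0.07, 0.02), with 1.61% of all genes rising and 1.51% falling. Without ATRA+pIC replicate 2, 2 rose and 7 fell, when 11.1% of all genes were called. Without replicate 1 or 3 of that group, or PBS replicate 1 or 2, no member was called, when 0.717% to 1.26% of all genes were.

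Paralogs were compared with the canonical protein they resemble through the change of their log2 ratio with polyI:C, averaged over both backgrounds. This sets no level of 1 probe set against another. The test permuted polyI:C labels within each background (exact, two-sided, 200 arrangements) and was adjusted over 9 pairs. The ratio rose by 0.66 for Rps27l to Rps27 (exact p = 0.01, adjusted 0.0225), by 0.60 for Rps4l to Rps4x (exact p = 0.005, the smallest possible, adjusted 0.0225), by 0.43 for Rpl7l1 to Rpl7 (exact p = 0.01, adjusted 0.0225) and by 0.32 for Rpl3l to Rpl3 (exact p = 0.005, adjusted 0.0225). Rpl3l itself changed by 0.04 in pIC versus PBS and 0.03 in ATRA+pIC versus ATRA, so the ratio of Rpl3l to Rpl3 rests on the 1 Rpl3 probe set used, while the other Rpl3 probe sets changed by 0.13 and -0.10 in the first comparison and by 0.06 and 0.22 in the second. In the same 2 comparisons Rpl7l1 changed by 0.21 and 0.22 and the Rpl7 probe set used by -0.21 and -0.23. A dimmer Rpl7 probe set changed by 0.32 and -0.03, so the ratio of Rpl7l1 to Rpl7 also depends on the Rpl7 probe set used. The ratio fell by 0.33 for Rps23rg1 to Rps23 (exact p = 0.015, adjusted 0.027). The pairs of Rpl6l, Rpl22l1, Rpl32l and Rpl39l did not pass, with adjusted exact p from 0.135 to 0.6. Without ATRA+pIC replicate 2 (100 arrangements) the same 5 pairs passed, with adjusted exact p of 0.018 to 0.03, and the ratio of Rpl22l1 to Rpl22 also passed, at -0.18 (exact p = 0.01, the smallest possible, adjusted 0.018).

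Genes around the ribosome showed other patterns in pIC versus PBS. A further list held 20 genes that also have TOP mRNAs, 18 of them measured. Most encode translation factors, while Npm1, Nap1l1, Naca, Btf3 and Tpt1 do not. Of the 18, 0 rose and 1 fell, and their median change was -0.08, near that of the ribosomal proteins. The gene that fell was Eif4a2, a helicase of cap-dependent initiation. Eif4a2 stood at 10.29, 10.22 and 10.26 in PBS, 9.74 and 9.74 in pIC, and changed by -0.52 ± 0.09 (limma adjusted p = 0.00571). Fau, which encodes a ribosomal protein under another name, changed by -0.11. Of 7 measured host genes of snoRNAs (9 listed) 1 rose, Zfas1 (0.41), and 1 fell, Epb41l4aos (-0.39).

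Among genes that make ribosomes about as many rose as missed the test. Of 17 measured genes of subunit assembly and export (18 listed) 8 rose and 0 fell, with a median of 0.39 and no gene below PBS. Bysl and Pno1, which mature the small subunit, rose by 1.11 ± 0.17 (limma adjusted p = 0.00378) and 1.17 ± 0.22 (0.00759). Bysl stood at 8.30, 8.16 and 8.33 in PBS and at 9.37 and 9.39 in pIC. Grwd1, a chaperone of Rpl3, rose by 0.65, and Xpo1, the nuclear exporter of both subunits, by 0.57. Of 14 RNA polymerase I genes, which transcribe ribosomal RNA, 7 rose and 0 fell, with a median of 0.30, among them Polr1a (0.54), Taf1c (0.47), Rrn3 (0.41) and Polr1b (0.34). In ATRA+pIC versus ATRA 3 of 17 assembly and 1 of 14 polymerase I genes rose, and 0 fell in either list. These counts were 8 of 17 and 5 of 14 without ATRA+pIC replicate 2, with 0 falling.

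Controllers of ribosomal protein translation moved in both directions in pIC versus PBS. Of 19 measured genes of mTORC1 and TOP control (20 listed) 6 rose and 2 fell. Deptor, an mTOR inhibitor, fell by 0.86 ± 0.12 (limma adjusted p = 0.00245), and Sesn1, an mTORC1 inhibitor and p53 target, fell by 0.78, while Sesn2 rose by 0.86. Rheb, the mTORC1 activator, rose by 0.53, Eif4ebp1, a repressor of cap-dependent initiation, by 0.70 and Larp1 by 0.51. Of 9 measured genes of the eIF2 kinase branch (10 listed) 3 rose and 2 fell. Eif2ak2, the kinase PKR that double-stranded RNA activates, rose by 1.42 ± 0.15 (limma adjusted p = 0.000786), and the phosphatase subunit Ppp1r15a fell by 0.98 ± 0.08 (limma adjusted p = 0.000491). Of 9 measured genes of ribosome rescue (12 listed) 2 rose, Gtpbp1 (0.51) and Ascc3 (0.63), and 0 fell. Of 11 measured genes of the p53 branch (13 listed) 2 rose and 2 fell. ATRA versus PBS called 0 genes in each of these lists by limma.

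**Figure D4:**
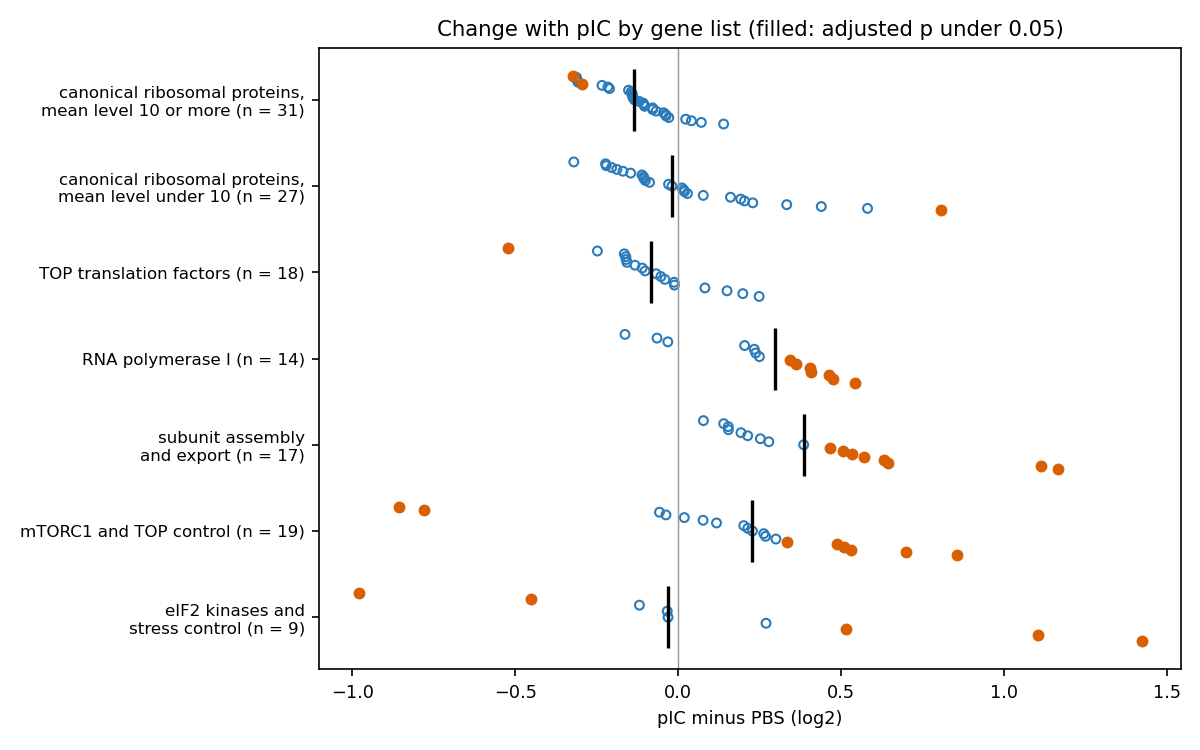
Change in pIC versus PBS (horizontal axis, log2) of each measured gene (points, filled where called by limma) in 7 lists (vertical axis, n in brackets); black lines are medians. The bright canonical ribosomal proteins (median -0.13) and the list labelled TOP translation factors (median -0.08) lie just left of 0, whereas RNA polymerase I (median 0.30) and assembly genes (median 0.39) lie to the right. The list labelled TOP translation factors also holds other genes with TOP mRNAs, such as Npm1 and Naca.

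Markers of other cells moved with polyI:C as well. Of 13 measured HSC markers (14 listed) 9 fell and 0 rose in pIC versus PBS, and their summed intensity was 14.28 to 14.36 on the log2 scale in PBS, 13.65 and 13.67 in pIC, and 13.62, 14.20 and 13.81 in ATRA+pIC. Of 9 measured erythroid markers (13 listed) 7 rose, with sums of 11.95 to 12.36 in PBS, 13.26 and 13.43 in pIC, and 13.10, 11.28 and 12.70 in ATRA+pIC. Of 11 measured T and NK cell markers (14 listed) 2 rose, with sums of 9.88 to 10.34 in PBS, 11.27 and 11.85 in pIC, and 12.27, 10.45 and 12.02 in ATRA+pIC. Of 10 macrophage and monocyte markers 3 rose and 0 fell, with sums of 10.21 to 10.36 in PBS, 11.38 and 11.39 in pIC, and 11.63, 10.66 and 11.41 in ATRA+pIC. The list did not move as a whole: its median change from the PBS mean was 0.09 and -0.09 in pIC. Mpeg1 stood at 5.18 to 5.36 in PBS and at 9.78 and 9.48 in pIC, whereas Lyz2 stood at 8.32 to 8.65 and at 7.88 and 7.69. Of 8 measured megakaryocyte markers (9 listed) 4 rose and 1 fell, with sums of 12.68 to 12.85 in PBS, 12.93 and 12.98 in pIC, and 13.21, 12.81 and 13.05 in ATRA+pIC. None of the 8 neutrophil or 7 measured B cell markers (8 listed) was called by limma, with 0 and 1 at an unadjusted p under 0.05. The neutrophil sum was 11.34 in ATRA replicate 1, compared with 9.65 and 9.63 in the other ATRA arrays. ATRA+pIC replicate 2, lowest of its group in the erythroid, T and NK, macrophage and megakaryocyte sums, also had the smallest fall in the members' median. These sums include background signal, so no marker reads as 0. Their part in the ribosomal protein results was not tested.

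Probe sets of 1 gene did not always move together. The table pairs 23521 of 41345 probe sets with 1 symbol, 1814 with several, and does not list 16010. The 69 members had 110 probe sets, and 25 members had more than 1, of which the one with the highest mean was used. In pIC versus PBS 17 of the 25 had probe sets of both signs. Rps24 and Rps3a1 each had a dimmer probe set that rose, by 0.36 and 0.40, against the brighter one at -0.31. A dimmer probe set of Rpl29 rose by 0.74, whereas the one used changed by 0.04. Ribosomal protein genes have many processed pseudogenes, and whether a probe set also reads these was not tested. Averaging all probe sets of each gene, 4 members rose and 0 fell in pIC versus PBS, when 14.3% of all genes were called. Rpl34, Rps19bp1, Rps27l and Rps4l stayed called there.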

How the data were processed

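The deposited table holds log2 intensities of 41345 probe sets on 11 arrays. Total RNA of sorted HSCs was isolated with a PicoPure kit and treated with DNase, per the labels' protocols. Per the submitters' processing notes, which state neither order nor role, oligo 1.36.1, limma 3.28.20 and RMA were used. RMA corrects background, normalises by quantiles and summarises probes by median polish. The quantile step gives every array the same spread of probe signals, so only changes relative to other genes can be seen. Summarised probe set values need not keep that spread, and their array medians ran from 6.19 to 6.28.

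Each gene was represented by its probe set with the highest mean over 11 arrays. limma 3.58.1 in R 4.3.3 was fitted with 4 group means and 7 residual degrees of freedom, for 6 contrasts, two-sided, with Benjamini-Hochberg adjustment over 22180 genes per contrast and a threshold of 0.05, after being tested on simulated data. Promoters were read in Python 3.11.15 and figures drawn with matplotlib 3.10.9. Members, lists and tests were chosen with earlier results of these data known. Named were, per contrast, the 6 largest rises and falls among called members, the 3 smallest p where under 3 were called, a fixed set of members and paralogs, and up to 4 genes per other list; members outside this rule were named after their values were seen, as was Larp1. Alternatives were weights for arrays, a fit without the dimmest 40% of genes, a replicate block, cyclic loess scaling, the mean of probe sets, a trend and robust prior, each array left out and a fit of only the groups compared. Added later were the bright members alone, the averaged polyI:C effect and that effect without ATRA+pIC replicate 2. Replicate numbers gave no sign of paired arrays. In their deviations from group means, same-numbered arrays correlated from -0.109 to 0.0976 and differently numbered ones from -0.143 to 0.114. With 2 or 3 arrays per group these correlations cannot exclude pairing.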

Additional observations from a re-analysis of the deposited data

How the results depend on the processing

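Medians of the 69 members kept their sign in pIC versus PBS, ATRA versus PBS, ATRA+pIC versus ATRA and ATRA+pIC versus PBS in each alternative run, while the counts of called members moved. In pIC versus PBS (6 called) the count was 12 with array weights, 10 with the dimmest genes left out, 13 with cyclic loess scaling, 15 with a trend and robust prior, 3 in the fit of only the groups compared, and 2 to 10 with 1 array left out. In ATRA+pIC versus ATRA (4 called) it was 14 with array weights, 2 with probe sets averaged, 9 with a trend and robust prior, 0 with only the groups compared, and 0 to 10 with 1 array left out. In ATRA+pIC versus PBS (3 called) it was 13 with array weights, 8 with the dimmest genes left out, 9 with the trend, 0 with only the groups compared, and 0 to 9 with 1 array left out. The share of all genes called moved as well. In pIC versus PBS (14.7%) it was 19% with array weights, 28.7% with the dimmest left out, 13.4% with cyclic loess, 16.2% with the trend, 13.7% with only the groups compared and 12.8% with the block. For ATRA+pIC versus ATRA it was 20.7% with array weights, 7.02% with probe sets averaged, 8.9% with the trend and 1.38% with only the groups compared, and in ATRA+pIC versus PBS 14.1%, 9.11% with the dimmest left out, 4.71% and 0.316%. The share with 1 array left out ran from 2.99% to 18.3% in pIC versus PBS. It ran from 2.15% to 14.5% in ATRA+pIC versus ATRA and from 0.717% to 11.1% in ATRA+pIC versus PBS. The other contrasts called 0 members in each alternative. The causes were not tested.

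With replicate number as a block, 5 members were called in pIC versus PBS, 3 up and 2 down, compared with 12.8% of all genes. In ATRA+pIC versus ATRA 2 rose and 1 fell with the block, compared with 6.12% of all genes called. The median change in pIC versus PBS was -0.153 with cyclic loess, -0.0355 with probe sets averaged and -0.136 for the bright members. Cyclic loess gave -0.0302 in ATRA versus PBS, 0.0200 in ATRA+pIC versus pIC, -0.0672 in ATRA+pIC versus ATRA and -0.109 in ATRA+pIC versus PBS. Averaged probe sets gave -0.0336 in ATRA+pIC versus pIC and -0.0186 in ATRA+pIC versus ATRA. The bright members gave -0.0674 in ATRA+pIC versus ATRA and -0.114 in ATRA+pIC versus PBS. With 1 array left out the median ran from -0.0607 to -0.0270 in ATRA versus PBS, from -0.0441 to 0.00661 in ATRA+pIC versus pIC, from -0.0563 to -0.0121 in ATRA+pIC versus ATRA, from -0.109 to -0.0656 in ATRA+pIC versus PBS and from -0.00367 to 0.0420 in the interaction, so the sign of the second and the last was not settled.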
